A study of Mus musculus with 8 samples.

Results

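This report covers GR and FOXO1 binding at the promoters of the nuclear genes of oxidative phosphorylation in mouse liver. The genes were the nuclear protein-coding genes of GENCODE M21 (mm10) whose symbols begin with Nduf, Uqcr, Cox4 to Cox8 or Atp5, or are Sdha, Sdhb, Sdhc or Sdhd. This gave 94 gene records with 93 symbols, since Atp5o has 2 records, out of 21938 protein-coding genes. The data were lists of peaks from chromatin immunoprecipitation and sequencing (ChIP-seq) against GR, the nuclear receptor for glucocorticoid hormones, in livers of adult male C57BL/6J mice taken at the onset of the dark phase. The 6 GR lists came from 2 libraries each of night-fed controls (ctrl.), calorically restricted mice (cal. res.), and night-fed mice given corticosterone by daily intraperitoneal injection (CORT). The labels name no vehicle injection for ctrl., so the hormone and the injection cannot be told apart. A further list came from 2 merged cal. res. libraries precipitated for FOXO1, a forkhead transcription factor, and has no replicate spread. All groups carried the wildtype genotype and ate regular chow.

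Oxidative phosphorylation is carried out in the inner mitochondrial membrane. Complexes I and II pass electrons from NADH and succinate to ubiquinone, complex III passes them on to cytochrome c and complex IV to oxygen, and complexes I, III and IV pump protons whose return drives ATP synthesis by complex V. Most subunits are encoded in the nucleus, and their promoters, many of them rich in CpG dinucleotides, are known targets of NRF1, of ETS factors such as GABP, of YY1 and of the estrogen-related receptors. The liver spends much ATP on glucose and urea synthesis, and glucocorticoids are known regulators of hepatic fuel use. GR binds palindromes of the hexamer AGAACA and single copies of it, mostly at enhancers, and can also be found at open promoters without such a site.

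The stretches before the gene start are printed for 4 genes. Uqcrq and Atp5s had the highest mean GR peak ranks, and Ndufa6, Ndufaf4 and Atp5s had FOXO1 peaks whose summits lay near the start. The sequences were read from RefSeq GRCm38.p6, run 5′ to 3′ towards the gene, and end at the base before the start, and they stop where an exon of a neighbouring gene begins. Capitals mark matches on either strand to the NRF1 motif GCGCATGC, the ERR motif AAGGTCA or the E-box CACGTG. The Uqcrq stretch is on the minus strand at chr11:53430832-53431022, Atp5s on the plus strand at chr12:69724874-69724949, Ndufa6 on the minus strand at chr15:82354323-82354572, and Ndufaf4 on the plus strand at chr4:24897833-24898082.
Uqcrq: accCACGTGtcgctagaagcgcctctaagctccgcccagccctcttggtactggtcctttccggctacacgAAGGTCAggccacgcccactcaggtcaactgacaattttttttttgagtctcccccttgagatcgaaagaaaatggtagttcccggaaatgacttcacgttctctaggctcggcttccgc
Atp5s: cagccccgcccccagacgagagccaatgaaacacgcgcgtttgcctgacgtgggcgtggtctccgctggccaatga
Ndufa6: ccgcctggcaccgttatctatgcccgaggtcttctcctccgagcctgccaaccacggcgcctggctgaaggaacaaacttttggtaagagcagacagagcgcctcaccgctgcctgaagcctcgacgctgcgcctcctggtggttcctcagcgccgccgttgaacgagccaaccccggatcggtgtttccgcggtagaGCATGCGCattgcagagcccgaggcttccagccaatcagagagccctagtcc
Ndufaf4: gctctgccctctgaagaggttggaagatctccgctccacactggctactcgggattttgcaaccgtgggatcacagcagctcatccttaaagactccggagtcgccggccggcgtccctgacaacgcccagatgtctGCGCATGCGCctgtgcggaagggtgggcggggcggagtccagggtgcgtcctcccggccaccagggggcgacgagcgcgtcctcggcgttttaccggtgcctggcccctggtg
None of the 4 stretches held a GR motif AGAACA or the forkhead motif TGTTTAC. The Uqcrq and Atp5s stretches do not reach the summits of their highest GR peaks, and the Atp5s stretch does not reach its FOXO1 summit. The Ndufa6 stretch does not reach the GR summit of cal. res. 2, 18 bp past the start. The Ndufaf4 stretch does not reach those of ctrl. 1 (4 bp past the start), cal. res. 1 (21 bp) and CORT 2 (121 bp). For those summits the printed letters do not show whether a motif is present. Uqcrq shares its promoter with Gdf9, which starts beside it. The Ndufaf4 capitals are 2 overlapping NRF1 matches.

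GR peaks were found at most of these promoters in some libraries and at a minority in others. A promoter was held by a list when at least 1 peak overlapped the window from 1 kb before to 1 kb after the gene start. The ctrl. libraries held 69 and 38 of the 94 promoters, the cal. res. libraries 34 and 28, and the CORT libraries 65 and 74. As shares these were 73.4% and 40.4% for ctrl., 36.2% and 29.8% for cal. res., and 69.1% and 78.7% for CORT. The shares of all protein-coding genes held by the same lists were 41.6% and 22.3% for ctrl., 27.1% and 21.4% for cal. res., and 38.3% and 39.8% for CORT. The oxidative phosphorylation genes therefore stood 31.8 and 18.1 percentage points above all genes in ctrl., 9.1 and 8.41 points above for the cal. res. pair, and 30.8 and 38.9 points above in CORT. Both cal. res. libraries lay below all 4 others in the share held and in the points above all genes, and the ctrl. libraries differed from each other more than the libraries of any other group.

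**Figure D1:**
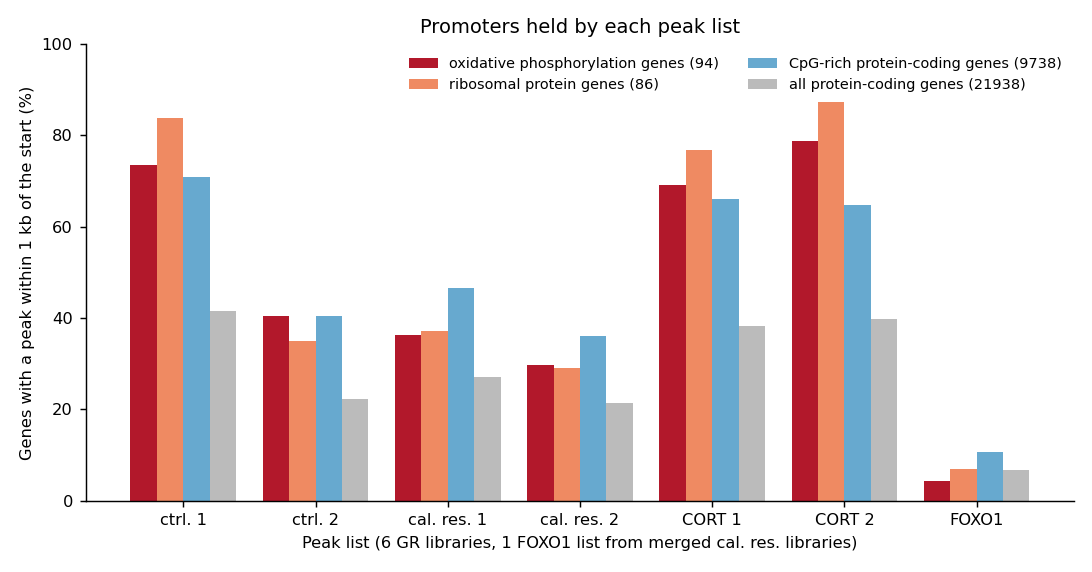
The bars give the percentage of genes with at least 1 peak within 1 kb of the gene start (vertical axis) in each of the 7 peak lists (horizontal axis), for the 94 oxidative phosphorylation genes, 86 ribosomal protein genes, 9738 CpG-rich genes and all 21938 protein-coding genes. The oxidative phosphorylation genes reach 69.1% to 78.7% in ctrl. 1 and both CORT libraries and 29.8% to 40.4% in ctrl. 2 and both cal. res. libraries.

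Ctrl. held a mean of 56.9% ± 23.3 (SD, n = 2) of these promoters. The mean was 33.0% ± 4.51 (SD, n = 2) for the cal. res. libraries, and the CORT libraries reached 73.9% ± 6.77 (SD, n = 2). CORT exceeded cal. res. by 41.0 points, and the pair did not overlap, with p = 0.333 in the two-sided exact permutation test over libraries, the smallest value that 2 libraries against 2 allow. The difference of cal. res. from ctrl. was -23.9 points (exact permutation p = 0.333) and that of CORT from ctrl. 17 points (exact permutation p = 0.667). Over the 15 ways to pair the 6 libraries, the exact permutation p was 0.133, with 0.0667 the smallest possible. In points above all genes the same contrasts were 26.1, -16.2 and 9.9, with exact permutation p of 0.333, 0.333 and 0.667. With these group sizes no difference could pass a threshold of 0.05.

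The order of the libraries also followed the style of their names in the labels. The 3 libraries whose names begin with a number (ctrl. 1, CORT 1 and CORT 2) held 65 to 74 of the promoters, and the 3 whose names begin with letters (ctrl. 2 and both cal. res.) held 28 to 38. The labels do not say what the styles stand for. Only ctrl. had a library of each style, so for cal. res. against CORT the treatment and the style cannot be told apart. Among libraries with letters first, ctrl. 2 held 40.4% against 36.2% and 29.8% in cal. res. Among libraries with numbers first, ctrl. 1 held 73.4%, between the 69.1% and 78.7% of CORT. Leaving out ctrl. 1 changed the difference of cal. res. from ctrl. from -23.9 to -7.45 points, and leaving out ctrl. 2 changed that of CORT from ctrl. from 17 to 0.532 points.

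The lists also differed in length, from 13667 peaks (12458 distinct regions) in ctrl. 2 to 48060 (39136 distinct regions) in CORT 2. Each library was then reduced to its 12458 top regions by p, which left ctrl. 2 whole and cut the others. Ctrl. then held 14 and 38 promoters, cal. res. 9 and 14, and CORT 26 and 29. The ctrl. libraries then changed order, and these were -0.988 and 18.1 points above all genes for ctrl., -1.95 and 2.51 for cal. res., and 7.43 and 11.9 for CORT.

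The members differed from other genes in the kind of promoter they have. Of the 94 promoters 69 (73.4%) were CpG-rich, taken as a GC content of at least 50% and a CpG ratio of observed over expected of at least 0.6 in the 500 bp on either side of the start, against 44.4% of all genes. The CpG-rich members were held at 82.6% and 47.8% in ctrl., 44.9% and 31.9% for the cal. res. pair, and 82.6% and 87.0% in CORT. All 9738 CpG-rich genes were held at 70.9% and 40.4%, 46.6% and 36.1%, and 66.1% and 64.8% in the same order. Compared in this way the genes stood 11.7 and 7.4 points above in ctrl., -1.69 and -4.2 points for the cal. res. pair, and 16.5 and 22.1 points above in CORT. The 25 members that were not CpG-rich were held in 12, 5, 3, 6, 8 and 14 cases in ctrl. 1 and 2, cal. res. 1 and 2, and CORT 1 and 2. This comparison set was chosen after the values had been seen.

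The ribosomal protein genes, another large set of genes used by every cell, gave nearly the same picture. Of 86 such genes, ctrl. held 83.7% and 34.9%, cal. res. 37.2% and 29.1%, and CORT 76.7% and 87.2%. Their shares were above those of the oxidative phosphorylation genes in ctrl. 1 and both CORT libraries and near them in cal. res.

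Single promoters were held by 0 to 6 of the GR lists. At least 1 list held 77 of the 94 promoters (81.9%, against 47.2% of all genes), and 17 were held by all 6 (18.1%, against 13.3%). A further 14 were held by 5 lists, 14 by 4, 21 by 3, 6 by 2 and 5 by 1. The most frequent number was 3, which 22.3% of these genes and 7.53% of all genes had. Of those 21 genes 20 were held by exactly ctrl. 1, CORT 1 and CORT 2, the libraries whose names begin with a number. These were 21.3% of the 94 promoters, against 4.81% of all genes. Of all 1651 genes held by 3 lists, 1055 had this pattern. The reverse pattern, all 3 libraries with letters first and none of the others, was found at 0 of these genes and at 0% of all genes.

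**Figure D2:**
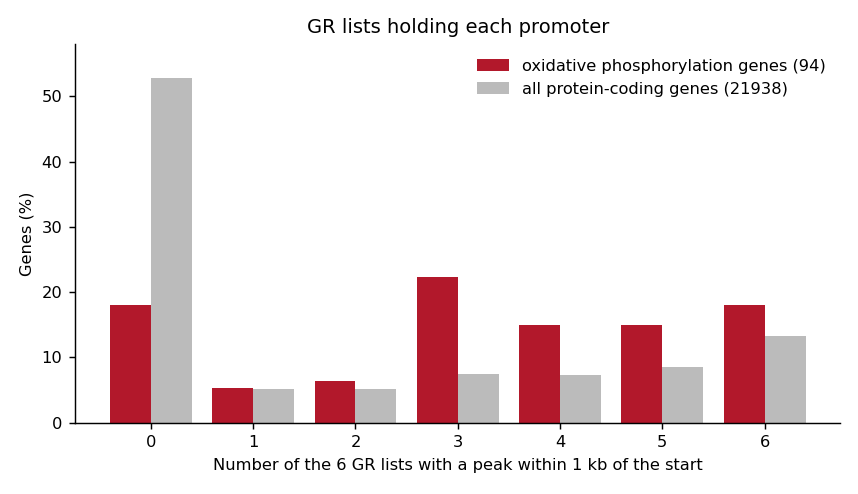
The bars give the percentage of genes (vertical axis) held by 0 to 6 of the GR lists (horizontal axis), for the 94 oxidative phosphorylation genes and all 21938 protein-coding genes. The oxidative phosphorylation genes are most often held by 3 lists (22.3%), while all genes are mostly held by none (52.8%).

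When a group was required to hold a promoter in both libraries, ctrl. held 36 (38.3%, against 21.7% of all genes), cal. res. 22 (23.4%, against 18.3%) and CORT 64 (68.1%, against 34.0%). All 3 groups shared 17 promoters, a share of 18.1% against 13.3% of all genes. Among CpG-rich promoters the members held were 44.9% against 39.5% of all for ctrl., 27.5% against 30.9% for cal. res., 81.2% against 57.7% for CORT and 20.3% against 23.4% for all 3 groups. In cal. res. (19 of 69 CpG-rich members) and in the set shared by all groups (14 of 69) the members were thus near this background, slightly below it. CORT held 31 promoters that ctrl. did not hold in both libraries (33.0%, against 14.6%), and ctrl. held 19 that cal. res. did not (20.2%, against 7.82%). Cal. res. held 5 that ctrl. did not (5.32%, against 4.39% of all genes), a share near the background. These were Ndufv1, the flavin subunit at which NADH enters complex I, Ndufs6, Sdhd, a membrane anchor of complex II, Cox7a2 and Atp5b, the catalytic beta chain of complex V. All 5 also had a peak in 1 ctrl. library, and they were named after their values had been seen. No promoter was held by both cal. res. libraries without being held by both CORT libraries, against 1.03% of all genes.

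The largest difference was between CORT and cal. res. Both CORT libraries and neither cal. res. library held 29 promoters (30.9%, against 7.95% of all genes and 13.0% of CpG-rich genes, where 36.2% of the CpG-rich members did so). Ribosomal protein genes did so in 33.7% of cases. The 29 comprised 11 of 36 complex I subunits, 4 of 8 complex I assembly factors, 1 of 4 in complex II, 4 of 8 in complex III, 1 of 20 in complex IV and 8 of 18 in complex V. Of these, 20 had a peak in ctrl. 1 and none in ctrl. 2, namely Ndufa8, Ndufa12, Ndufb4, Ndufb6, Ndufb7, Ndufb11, Ndufc2 and Ndufs4 of complex I, the assembly factors Ndufaf2, Ndufaf3, Ndufaf7 and Ndufaf8, Sdhc, Uqcr10, Uqcr11, Uqcrh, Cox8a, Atp5g2, Atp5g3 and Atp5l. Both ctrl. libraries held 7 more (7.45%, against 1.86% of all genes), namely Ndufs1, which carries iron-sulfur clusters of complex I, Uqcrc2, a core protein of complex III, and Atp5d, Atp5e, Atp5h, Atp5mpl and Atp5o of complex V. Neither ctrl. library held the remaining 2 (2.13%, against 1.16%), the complex I genes Ndufs7 and Ndufc1. This share is near the background, with 1.45% of CpG-rich members against 1.59% of all CpG-rich genes. Ndufs7, which holds the last iron-sulfur cluster before ubiquinone, had fold enrichments of 4.34 and 5.14 in the CORT lists, and Ndufc1 had 3.8 and 6.61.

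The complexes differed in how often they were held. Counted as the mean number of GR lists per gene record, the 4 genes of complex II were highest at 5.0. Complex V followed at 3.78 (18 records), complex I at 3.69 (36 genes) and complex III at 3.62 (8 genes). The complex I assembly factors were at 2.5 (8 genes) and complex IV at 1.9 (20 genes). The records of complex V include both of Atp5o, 1 of them held by no list, and Atp5s, which is not a subunit. With equal numbers of regions the means fell to 2.25 for complex II, 1.42 for complex I and 0.95 for complex IV, and the assembly factors were lowest at 0.75. With a window of 3 kb complex IV (2.65) and the assembly factors (2.62) were nearly equal. The values of complexes I, III and V were close to each other, and no test between complexes was made. In complex IV the share held ran from 4 to 10 of 20 genes over the 6 libraries, in complex I from 41.7% to 88.9% and in complex V from 22.2% to 88.9%. Complex I held its share of 41.7% in ctrl. 2 and both cal. res. libraries, with 15 of 36 genes in each, while complex V went from 11 of 18 in ctrl. 2 to 7 and 4 in cal. res. The assembly factors, which build complex I and are not part of it, were held in 1 of 8 cases in ctrl. 2, 2 and 0 in cal. res., 6 in ctrl. 1, and 5 and 6 in CORT.

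**Figure D3:**
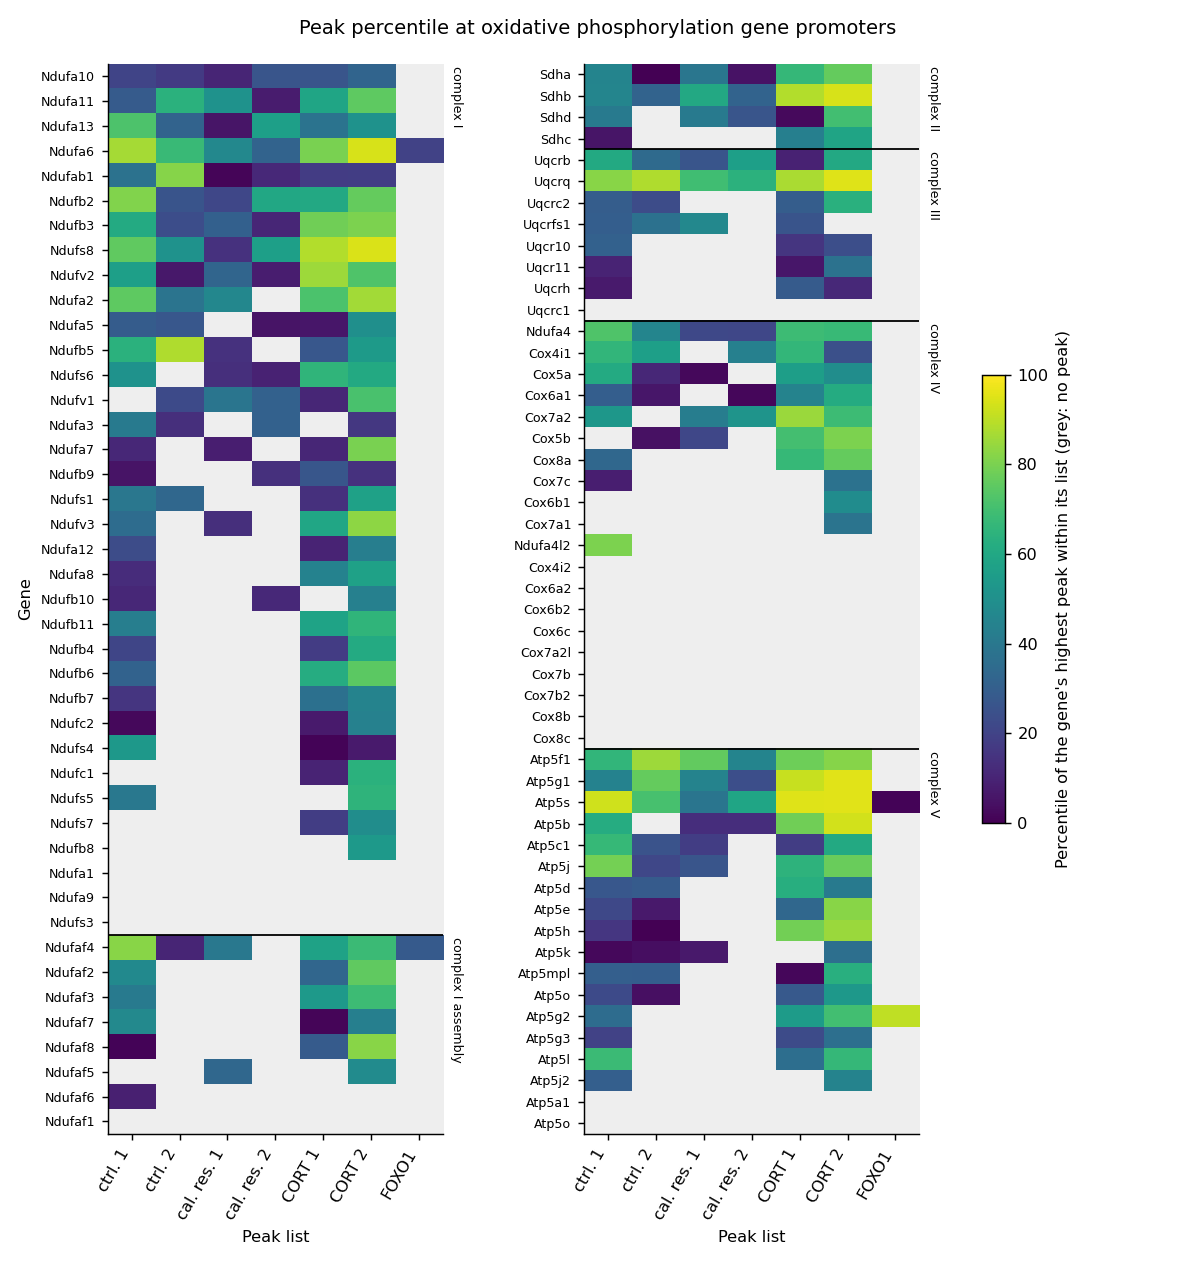
Each row is 1 gene record among those reported, sorted by complex and by the number of GR lists that hold it, each column is a peak list, and the colour gives the percentile of fold enrichment of the gene's highest peak within that list (0 to 100, grey where the list has no peak within 1 kb). Only 4 cells of the FOXO1 column are filled, and among the GR columns grey cells are most frequent in ctrl. 2, cal. res. 1 and cal. res. 2.

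The genes grouped under complex IV include 8 isoform genes of other tissues. These genes, known from testis, lung, heart or muscle, or induced by low oxygen (Cox4i2, Cox6a2, Cox6b2, Cox7a1, Cox7b2, Cox8b, Cox8c and Ndufa4l2), were held by 0.25 lists on average. Only Ndufa4l2 in ctrl. 1, at the 80.1 percentile with a summit 1267 bp past the start, and Cox7a1 in CORT 2, at 38.5, had a peak. Their liver counterparts were held by 0 to 6 lists. Ndufa4 was held by all 6, Cox4i1, the main subunit IV, by 5, Cox6a1 and Cox7a2 by 5, Cox8a by 3, Cox6b1 by 1 and Cox7b by 0. Cox5a was held by 5 lists and Cox5b by 4.

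A class of 20 genes was called core here, although Cox4i1, Cox5a, Cox5b, Uqcrc1 and Uqcrc2 in it are not catalytic subunits. Of the 20, Ndufv2, Ndufs8, Sdha and Sdhb were held by all 6 lists. Sdha, the flavin subunit of succinate dehydrogenase, ranked at percentiles 45.2 and 0.0659 in ctrl., 39.2 and 4.9 for the cal. res. pair, and 66.7 and 76.5 in CORT. Sdhb, its iron-sulfur subunit, ranked at 45.4 and 31.9, 60.2 and 31.9, and 88.5 and 93.9 in the same order. In both genes the CORT values lay above all others. Ndufv1, Sdhd, Cox4i1, Cox5a, Atp5b and Atp5c1, the gamma chain, were held by 5 lists. Ndufs1, Uqcrfs1, the Rieske protein of complex III, Uqcrc2 and Cox5b were held by 4, Sdhc by 3 and Ndufs7 by 2. Ndufs3, Uqcrc1 and Atp5a1, the alpha chain of complex V, had no peak within 1 kb in any list. Of the 20 core genes 13 and 12 were held in the ctrl. libraries, 11 and 8 for the cal. res. pair, and 16 and 15 in CORT. The 57 subunits classed as accessory were held in 48 and 24, 20 and 19, and 43 and 51 cases, a wider spread over the libraries by these counts. The difference between the classes was not tested.

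Of the 94 records, 17 were held by no GR list (18.1%, against 52.8% of all genes) and by no FOXO1 peak. Besides 6 of the tissue isoforms and the core genes above, these included Ndufa1, Ndufa9, Ndufaf1, Cox6c, Cox7a2l, Cox7b and 1 of the 2 records of Atp5o. The record of Cox7a2l, a factor in supercomplex formation, begins 3000 bp from the nearest start in the basic transcript set. Counted from any transcript start, 15 records were held by no GR list.

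Where peaks were present, their median rank in each list was below that of all promoters held. The peaks of each list were ranked by the caller's fold enrichment, and the highest peak of a promoter gave its percentile. The median percentile over the promoters held was 39.7 and 27.9 in ctrl., 28.6 and 26.3 for the cal. res. pair, and 43.3 and 62.4 in CORT. The medians over all protein-coding promoters held were 56.8 and 44.7, 38.0 and 37.9, and 59.2 and 66. Ribosomal protein genes likewise had medians of 19.9 to 60.3. In CORT 2, 49 of 74 promoters held lay above the middle of the list, compared with 30 of 65 in CORT 1, 24 of 69 and 10 of 38 for the ctrl. pair, and 4 of 34 and 7 of 28 in cal. res. The top 10% of a list held 7 promoters in CORT 2, 2 in CORT 1, 1 in ctrl. 1 and 0 in the other 3 libraries.

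**Figure D4:**
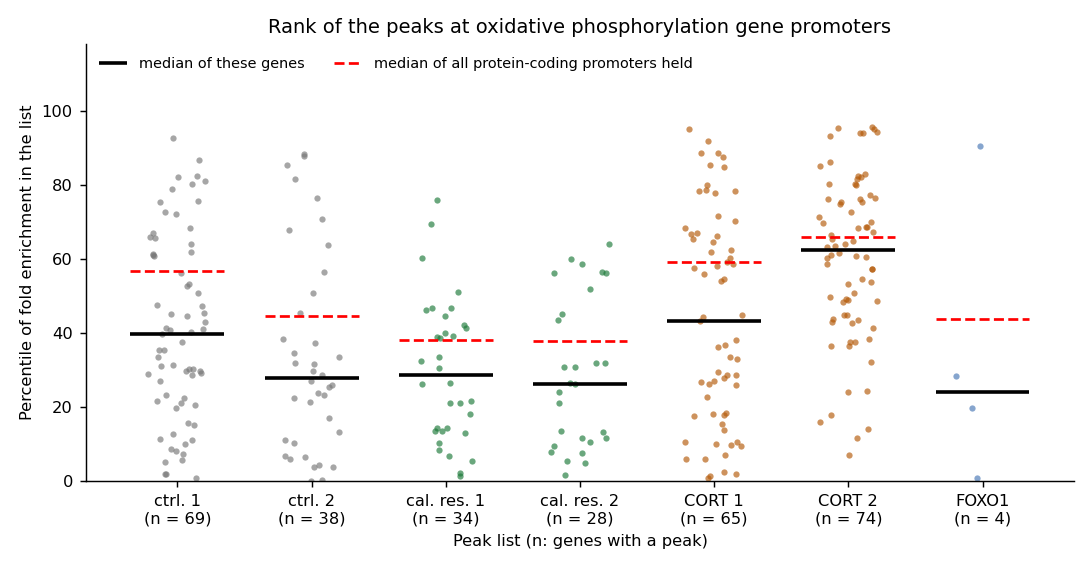
Each point is 1 promoter with a peak, placed by the percentile of its highest peak's fold enrichment within the list (vertical axis) for each of the 7 lists (horizontal axis, with the number of promoters). The solid black line is the median of these genes and the dashed red line the median of all protein-coding promoters held, and the black line lies below the red line in every list.

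Averaged over its libraries, the median percentile of ctrl. was 33.8 ± 8.36 (SD, n = 2). It was 27.4 ± 1.64 (SD, n = 2) for the cal. res. libraries and 52.9 ± 13.5 (SD, n = 2) for the CORT libraries. The CORT values exceeded those of cal. res. by 25.4 (exact permutation p = 0.333) and those of ctrl. by 19.1 (exact permutation p = 0.333), without overlap. Over all protein-coding promoters held, the medians were also highest in CORT, at 59.2 or more. They were 56.8 and 44.7 in ctrl. and 38.0 and 37.9 in cal. res. The differences of 25.4 and 19.1 were not tested against this background and do not show a shift particular to these genes. The difference of cal. res. from ctrl. was -6.38 (exact permutation p = 0.667), and over the 15 pairings the exact permutation p was 0.133. Ranked only among peaks at promoters, the medians were 35.6 and 32.3 in ctrl., 40.6 and 36.0 for the cal. res. pair, and 36.3 and 54.1 in CORT, so that cal. res. was then above ctrl. and CORT 2 above the middle of promoter peaks. The median fold enrichment at these promoters was 4.98 and 3.84 in ctrl., 4.45 and 3.97 for the cal. res. pair, and 5.85 and 6.39 in CORT. Fold enrichments are scaled within each library and were not tested between them.

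Among the 17 promoters held by all 6 lists, the mean percentile over the lists ran from 22.2 for Ndufa10 to 81.0 for Uqcrq. The 6 highest were Uqcrq, a small subunit of complex III that touches the ubiquinone site, at 81.0, Atp5s, coupling factor B, at 75.2, Atp5f1, subunit b of the peripheral stalk of complex V, at 72.0, Ndufa6 at 67.9, Ndufs8, an iron-sulfur subunit of complex I, at 63.3 and Atp5g1, subunit c of the proton-turning ring, at 62.8. The percentiles ran from 64.1 to 95.0 at Uqcrq and from 10.3 to 32.3 at Ndufa10, and those of neighbouring genes in this order overlapped.

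Uqcrq (chr11:53427922-53430831) had fold enrichments of 9.97 and 7.4 in ctrl., 7.67 and 6.0 for the cal. res. pair, and 14.5 and 20.5 in CORT. The CORT values were the highest, and those of ctrl. and cal. res. overlapped. In ctrl. and CORT the summit of the highest peak lay at -400 to -271 bp from the start, beyond the start of Gdf9 at -192 bp. In cal. res. the summit of the highest peak lay at -1061 and -1031 bp, outside the window of 1 kb. The values are thus not all of the same site, and the peaks may be counted for either gene.
Atp5s (chr12:69724950-69744660) had 14.6 and 5.51 in ctrl., 4.95 and 5.56 for the cal. res. pair, and 21.9 and 21.3 in CORT, with all summits between 53 and 185 bp past the start. Ctrl. 1 lay between CORT and the other 3 libraries.
Atp5f1 (chr3:105942698-105960099) had 7.1 and 7.0 in ctrl., 8.74 and 4.74 for the cal. res. pair, and 10.7 and 10.3 in CORT. Its summits stood 765 to 779 bp past the start in all 6 libraries, close to the start of Wdr77 at 730 bp, so the peak may be counted for either gene.
Ndufa6 (chr15:82350140-82354322), an accessory subunit of complex I, had 11.4 and 5.29 in ctrl., 5.46 and 4.18 for the cal. res. pair, and 11.3 and 18.6 in CORT. Ctrl. 1 and CORT 1 were nearly equal.
Ndufs8 (chr19:3908863-3912774) had 8.55 and 4.49 in ctrl., 3.81 and 5.36 for the cal. res. pair, and 15.2 and 19.2 in CORT.
Atp5g1 (chr11:96068852-96075670) had 5.2 and 5.98 in ctrl., 5.27 and 3.88 for the cal. res. pair, and 17.5 and 21.5 in CORT. At Atp5g1 the CORT values stood apart from ctrl. 1 as well, which shares their style of name. At Ndufs8 the CORT values were also the highest, with a smaller gap to ctrl. 1. These genes were chosen by their percentiles, so their values are a description.

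**Figure D5:**
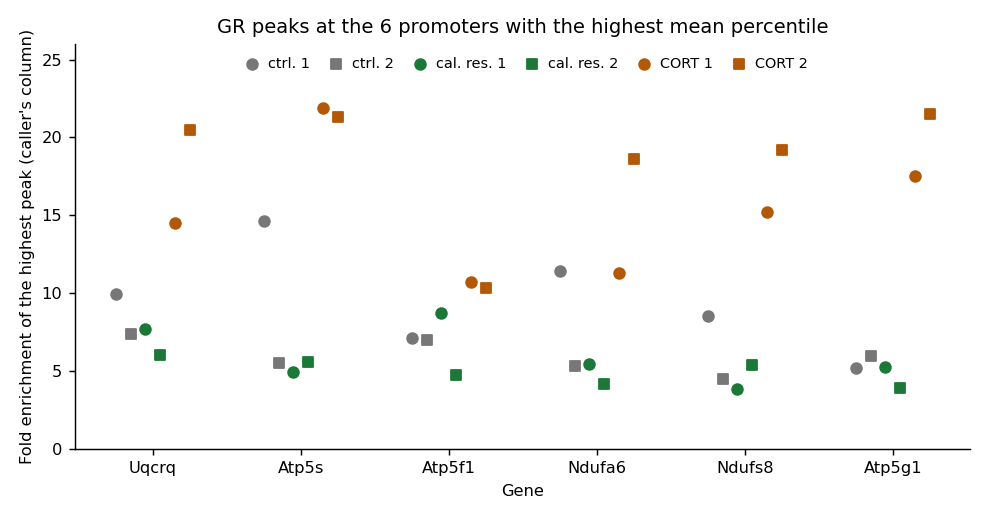
Points give the fold enrichment of the highest GR peak (vertical axis, the caller's value, scaled within each library) at the 6 promoters with the highest mean percentile (horizontal axis), by library; circles are replicate 1 and squares replicate 2. At Atp5g1 the CORT libraries are at 17.5 and 21.5 and the other 4 between 3.88 and 5.98.

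FOXO1 peaks were found at 4 of the 94 promoters (4.26%, against 6.8% of all genes and 10.6% of CpG-rich genes), a share below the background of its list. Ribosomal protein genes had FOXO1 peaks in 6.98% of cases. The 4 genes were Ndufa6, Ndufaf4, an assembly factor of complex I, Atp5s and Atp5g2, another gene for subunit c. Ndufa6 had a FOXO1 fold enrichment of 4.63 at the 19.9 percentile, with its summit 63 bp before the start. Ndufaf4 had 4.88 at 28.4, with the summit 143 bp before the start. Atp5s had 3.78 at 0.953, with the summit 5 bp past the start. Atp5g2 had 11.4 at 90.6, but its summit lay 1158 bp past the start of the gene record, beside a transcript start 1225 bp away.

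Ndufa6 and Atp5s were also held by all 6 GR lists and Ndufaf4 by all but cal. res. 2. Atp5g2 was held by ctrl. 1, CORT 1 and CORT 2 and had no GR peak within 1 kb in either cal. res. library, the condition in which FOXO1 was measured. Only Atp5g2 remained among the stronger 50% of FOXO1 peaks. No forkhead motif TGTTTAC was found in the 300 bp around the start (250 bp before to 50 bp after) of any of the 4 genes. It was at 3.05% of all and 2.02% of CpG-rich promoters, so 0 of 4 is near the background. This window does not reach the FOXO1 summit of Atp5g2. In 200 bp around the FOXO1 summits the motif was at 0 of these 4 peaks. The shares were 14.3% at FOXO1 promoter peaks of all genes and 19.5% at those away from promoters. With 4 peaks the difference was not tested.

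Motifs were searched on both strands in the same 300 bp of all genes. NRF1 GCGCATGC was found at 10.6% of the oxidative phosphorylation promoters, against 3.71% of all and 6.13% of CpG-rich promoters. For YY1 AAGATGGC the shares were 9.57%, 2.92% and 4.7%, and for ERR AAGGTCA they were 10.6%, 4.16% and 2.38%. ETS CCGGAAG was at 19.1%, 10.8% and 18.6%, and SP1 GGGCGG at 42.6%, 43.0% and 71.7%. The cyclic AMP response element TGACGTCA was at 4.26%, 2.43% and 3.86%, and the E-box CACGTG at 8.51%, 7.75% and 11.3%. The forkhead motif was at 4.26%, 3.05% and 2.02%. The GR motif AGAACA was at 11.7% of these promoters, 16.9% of all and 9.39% of CpG-rich promoters. The palindrome of AGAACA and TGTTCT with 3 bases between was at 0 of the 94, against 1 of all 21938 promoters.

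The ERR motif was found before or at Uqcrq, Ndufs1, Ndufs5, Ndufb2, Ndufb4, Sdhd, Atp5e, Atp5g3, Atp5l and Atp5mpl. The NRF1 motif was found at Ndufa6, Ndufa11, Ndufaf4, Ndufaf5, Sdhb, Uqcr11, Cox6a1, Cox8c, Atp5k and Atp5l. Both are counts of letters and not of bound factors.

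The GR motif was less frequent at these peaks than at peaks away from promoters, by the shares in each library. In 200 bp around the summit, AGAACA was found at 7.06% and 9.3% of the peaks at these promoters in ctrl., 7.89% and 12.5% for the cal. res. pair, and 3.95% and 4.9% in CORT. At promoter peaks of all genes the shares were 8.72% and 8.07%, 9.62% and 10.8%, and 8.52% and 10.8%. At peaks away from promoters they were 20.3% and 23.6%, 22.6% and 23.4%, and 21.4% and 20.5%. The palindrome was found at 0 of the peaks at these promoters in every list. In the GR lists it was at 0.00898% to 0.0199% of promoter peaks of all genes. Away from promoters it was at 0.0661% to 0.188% of GR peaks. It was thus rare everywhere, and the 0 at these promoters is near that background. The ETS motif was at 14.1% and 16.3% of these peaks in ctrl., 7.89% and 15.6% for the cal. res. pair, and 13.2% and 11.8% in CORT, against 9.49% to 11.2% of promoter peaks of all genes and 1.19% to 1.59% of peaks away from promoters. In cal. res. 1 the share of these peaks was thus below that of promoter peaks. The peaks numbered 85 and 43, 38 and 32, and 76 and 102, so the shares rest on few peaks.

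Most peaks sat close to the start. The summit of the highest peak lay a median of 102 to 126 bp from the start in the 6 GR lists, and within 300 bp at 59 of 69 and 32 of 38 promoters for the ctrl. pair, 27 of 34 and 23 of 28 for the cal. res. pair, and 54 of 65 and 64 of 74 in CORT. The windows of 35 promoters (37.2%) also held the start of another protein-coding gene. These shared promoters were held at 85.7% and 48.6% in ctrl., 51.4% and 40.0% for the cal. res. pair, and 85.7% and 88.6% in CORT. The 59 other promoters were held at 66.1% and 35.6%, 27.1% and 23.7%, and 59.3% and 72.9%. In cal. res. the promoters without a neighbour were held at 27.1% and 23.7% against 27.1% and 21.4% of all genes.

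Other genes of the pathway were counted in the same way. Of 41 further respiratory chain and assembly genes outside the symbol rule, ctrl. held 80.5% and 36.6%, cal. res. 46.3% and 48.8%, and CORT 73.2% and 82.9%. A set of 18 genes covered the tricarboxylic acid cycle, which supplies NADH and succinate, and pyruvate dehydrogenase (Pdha1, Pdhb, Pdhx and Dlat). Of these 18, ctrl. held 88.9% and 66.7%, cal. res. 72.2% and 66.7%, and CORT 83.3% and 100%. Of 13 carriers and channels of the inner and outer membranes, ctrl. held 84.6% and 61.5%, cal. res. 69.2% and 46.2%, and CORT 76.9% and 84.6%. Of 18 regulators of mitochondrial biogenesis, ctrl. held 88.9% and 83.3%, cal. res. 77.8% and 50%, and CORT 88.9% and 77.8%. By these shares the genes of the cycle and of pyruvate dehydrogenase were held more often than the oxidative phosphorylation genes in all 6 libraries. The regulators were held more often in all but CORT 2. FOXO1 peaks were at 3 of the 41, 2 of the 18, 0 of the 13 and 5 of the 18 genes.

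Among the regulators, Ppara, a receptor for fatty acids, had percentiles of 87.2 to 99.5 over the 6 GR lists, and Esrra, the estrogen-related receptor alpha, 52.4 to 94.8. Ppargc1a, a coactivator of mitochondrial genes, had no GR peak within 1 kb. Among the genes of the cycle and of pyruvate dehydrogenase, Dlat, a subunit of the latter, had 78.1 to 92.2. These genes were named after their values had been seen.

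The label of the tissue was checked at promoters of marker genes. Of 6 hepatocyte markers 4 to 6 were held by each GR list and 4 by the FOXO1 list. Of the markers of macrophages, endothelium, bile duct, stellate cells, lymphocytes or other organs, 1 macrophage marker was held in ctrl. 1 and none in the other lists. Read depth was not analysed here.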

How the data were processed

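GR was measured by ChIP-seq in 6 liver libraries, 2 per group, and FOXO1 in 2 merged cal. res. libraries. By the methods, the authors aligned reads to mm10 with BWA MEM, removed duplicates and multiply mapped reads, used MACS2 on paired ends to call peaks and removed blacklisted regions. An input control is not given in the sources used here. The deposited fold enrichment (ratio) is the caller's value at the summit over its local background, and the deposited −log10 p and −log10 q values come from its model. Each GR list was called in its library alone. The largest q was 0.0998 in a GR list and 9.84e-06 in the FOXO1 list.

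Gene starts came from GENCODE M21, and a peak counted with 1 bp of overlap. Peaks were ranked within each list by fold enrichment. Groups were compared over libraries with two-sided exact permutation tests (SciPy 1.17.1, pandas 2.3.3, NumPy 2.4.6, pysam 0.24.0), which were tested on simulated data. The methods call the 2 libraries of a group biological replicates and do not say how many animals each holds. The members and lists were chosen with earlier results of these data known. The rule for naming took the genes classed as core, genes held by no list and genes with FOXO1 peaks. It also took genes held by both libraries of 1 or 2 groups and by no library of the others. It further took the 6 with the highest mean percentile among those held by all GR lists. Others were named after their values were seen. Some single genes are not reported here by name but stay in all counts.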

Additional observations from a re-analysis of the deposited data

How the results depend on the processing

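The share of promoters held and its points above all genes kept the direction of each contrast between groups under all settings tried, including a window of 500 bp or 3 kb, any transcript start, stricter q, an equal number of regions and CpG-rich promoters only, which was chosen after seeing the data. Their sizes moved. With equal regions CORT minus ctrl. fell from 17 to 1.6 points in share and from 9.9 to 1.1 above all genes, and CORT minus cal. res. from 41.0 to 17 and from 26.1 to 9.38. With q of at most 1e-05, cal. res. minus ctrl. went from -23.9 to -11.7 and from -16.2 to -5.02. No exact permutation p between 2 groups was below 0.333, so no such difference could pass the threshold. In median percentile, CORT minus cal. res. fell from 25.4 to 6.89 (exact permutation p = 0.667) with percentiles among promoter peaks only. CORT minus ctrl. fell from 19.1 to 11.3 (exact permutation p = 0.333) in that way and to 3.43 (exact permutation p = 0.667) with equal regions. Cal. res. minus ctrl. reversed from -6.38 to 0.777 without promoters beside another start and to 4.38 with percentiles among promoter peaks only. The cause was not tested. Promoters held by both ctrl. libraries went from 36 to 9 with q of at most 1e-05, 12 with equal regions, 19 without promoters beside another start and 71 with either library. The same settings gave 4, 7, 11 and 40 for cal. res. (22) and, for the first 3, 35, 22 and 34 for CORT (64). FOXO1 promoters went from 4 to 2 among subunits only and 1 among the stronger 50% of peaks. Promoters held by both CORT and neither cal. res. library went from 29 to 13 with equal regions and 19 without promoters beside another start.

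Leaving out 1 library gave 38 to 69 promoters for ctrl., 28 to 34 for cal. res. and 65 to 74 for CORT. The difference in share ranged from -40.4 to -7.45 points for cal. res. from ctrl., 0.532 to 33.5 for CORT from ctrl. and 36.2 to 45.7 for CORT from cal. res. With the replicate block, that is pairing libraries of the same number, the differences were the same, with exact permutation p of 0.5, 1.0 and 0.5 and 0.5 the smallest possible, and it changed no call. The numbers share only a name, and the labels give no pairing.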

Other observations

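The subunits encoded in mitochondrial DNA were outside the rule, but each list also held peaks on that genome. There were 23 and 21 peaks in the ctrl. libraries, 23 and 20 in cal. res., 23 and 24 in CORT and 29 in the FOXO1 list. In CORT their fold enrichments ran from 5.16 to 18.4 and from 4.97 to 17.7. All lay above the 1.22 to 3.86 of the other 4 GR libraries, and the FOXO1 list ran from 2.49 to 6.02. Fold enrichments are scaled within each library, and an input control is not given in the sources used here. These ranges therefore do not show a difference in GR binding, which was not tested.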
